A study of Mus musculus with 115 samples.

Results

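These cells were kainic acid granule cells of the mouse dentate gyrus, divided by whether they carried the transcript of Npy, the gene of neuropeptide Y. The 2 groups were chosen by their measured Npy level: a cell was Npy-positive at 10 or more Npy counts per 1000000 counts (CPM) and Npy-negative below that. Of the 95 cells in the count table, 45 were kainic acid cells with title numbers 1 to 48, and 29 of these were Npy-positive and 16 Npy-negative. The Npy level itself is therefore a description of the choice and is not a finding, and the differences below are descriptions with no test. Each library was 1 cell and no label ties a cell to its mouse, so the spread between cells cannot be divided into spread between mice and spread within a mouse.

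All cells came from Rbp4-Cre transgenic mice. A retrograde virus carrying EGFP had been placed in the right ventral hippocampus, and either kainic acid, a glutamate receptor agonist that provokes seizures, or saline in the left hippocampus together with a virus whose mCherry depends on Cre. The contents of single granule cells on the left side were drawn into a patch pipette 2 weeks later and sequenced, whether or not the cell showed mCherry. EGFP+ cells are those labelled from the opposite hippocampus and EGFP- cells those without the label. The kainic acid EGFP+ cells of the study came from 9 mice and its kainic acid EGFP- cells from 3, with no age given. Among the 45 cells used here 24 were EGFP+ and 21 EGFP-. A second title series, with higher numbers, held 18 more kainic acid cells and all 32 saline cells of the table (27 EGFP- and 5 EGFP+), and none of these entered the division.

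Neuropeptide Y is a peptide transmitter that is stored in dense-core vesicles and acts on G protein-coupled Y receptors. In the hippocampus it is made mainly by GABAergic interneurons, and in rodents granule cells are known to begin making it after seizures, when it reaches mossy fibre terminals and can reduce glutamate release through presynaptic receptors. The peptide is cut from a precursor by the same convertases that process enkephalin, dynorphin and CART.

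The mouse Npy gene lies on chromosome 6 at 49822710 to 49829507 of GRCm38, on the plus strand. The 250 bases before the start site are shown for Npy and for 3 of the genes described below. These are Cartpt, the gene of the CART peptide, Sstr2, the somatostatin receptor with one of the largest differences, and Gad2, an enzyme of GABA synthesis. Cartpt was higher with Npy in EGFP+ cells and lower with it in EGFP- cells. Capitals mark the cAMP response element TGACGTCA, a known binding site of CREB, or its 5-base core TGACG, in either orientation. The sequences are RefSeq promoters of the GRCm38.p6 assembly, written 5′ to 3′ along the gene: Npy at chr6:49822460-49822709 (plus strand), Cartpt at chr13:99900684-99900933 (minus strand), Sstr2 at chr11:113619077-113619326 (plus strand) and Gad2 at chr2:22622077-22622326 (plus strand).
Npy: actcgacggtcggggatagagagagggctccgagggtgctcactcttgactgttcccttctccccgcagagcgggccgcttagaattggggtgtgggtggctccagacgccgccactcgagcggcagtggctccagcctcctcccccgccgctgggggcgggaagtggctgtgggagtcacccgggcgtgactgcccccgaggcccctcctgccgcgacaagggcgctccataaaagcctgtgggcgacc
Cartpt: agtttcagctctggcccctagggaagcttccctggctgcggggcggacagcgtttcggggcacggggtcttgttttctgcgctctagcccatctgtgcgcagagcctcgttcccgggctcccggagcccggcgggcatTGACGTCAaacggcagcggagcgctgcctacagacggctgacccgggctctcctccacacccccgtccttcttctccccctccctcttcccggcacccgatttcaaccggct
Sstr2: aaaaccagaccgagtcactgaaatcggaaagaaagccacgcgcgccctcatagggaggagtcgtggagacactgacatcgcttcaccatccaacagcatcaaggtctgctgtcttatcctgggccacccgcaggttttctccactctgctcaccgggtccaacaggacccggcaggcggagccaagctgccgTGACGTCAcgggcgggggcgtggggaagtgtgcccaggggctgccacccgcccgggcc
Gad2: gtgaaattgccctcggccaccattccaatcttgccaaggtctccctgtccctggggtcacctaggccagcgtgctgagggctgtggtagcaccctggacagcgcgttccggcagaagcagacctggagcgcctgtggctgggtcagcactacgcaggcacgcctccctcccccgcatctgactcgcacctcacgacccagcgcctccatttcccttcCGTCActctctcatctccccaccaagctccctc
The whole element was found 112 bases before the Cartpt start and 58 bases before the Sstr2 start, and the core alone 33 bases before the Gad2 start. Neither form occurred in the 250 bases before the Npy start. The 3 genes shown beside Npy all held a marked site, but other genes described below that were searched did not. Gal, Inhba, Pdyn and Gad1 had neither form. Cck had the core, and Bdnf had no whole element and the core in 1 of its several promoter entries. Over 32851 RefSeq promoters of the same length, searched on both strands, the whole element occurred in 1.55% and the core in 17.8%, where each whole element also counts as a core. These are matches of letters, and nothing was measured on binding.

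Npy was close to an on-or-off transcript in these cells. In Npy-positive cells it ranged from 17.4 to 5482 CPM with a median of 906 CPM, and in the highest cell it was 0.548% of all counts. In Npy-negative cells 11 of 16 had no Npy count and the others had 0.120 to 8.17 CPM. The cell just inside the threshold had 17.4 CPM and the cell just outside it 8.17 CPM, and the next cell below had 0.836 CPM. On the log2(CPM + 1) scale the mean was 9.30 ± 2.39 (SD, n = 29) in Npy-positive and 0.32 ± 0.81 (SD, n = 16) in Npy-negative cells.

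**Figure D1:**
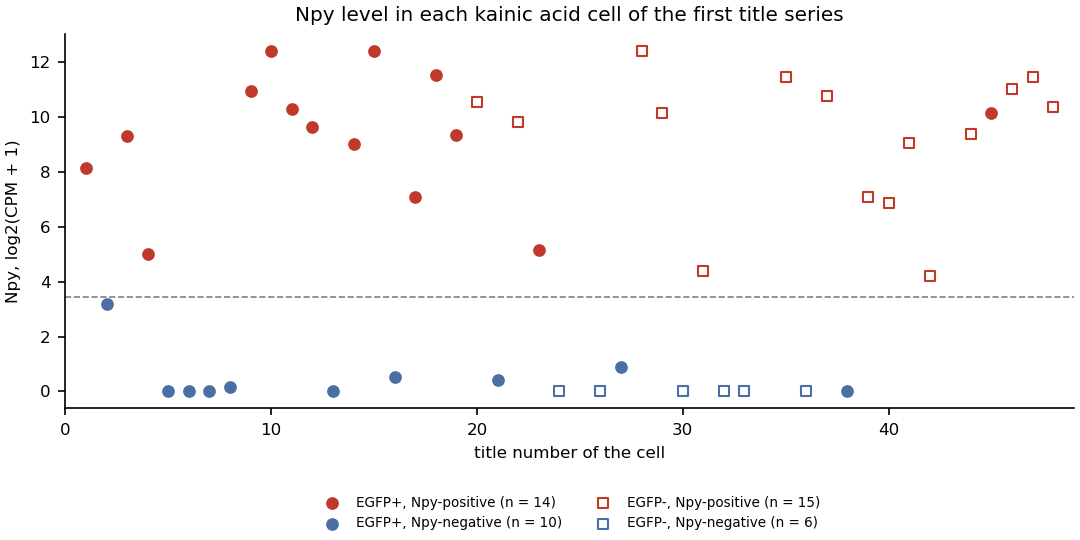
Npy level, log2(CPM + 1), of each of the 45 kainic acid cells against its title number, with filled circles for EGFP+ cells, open squares for EGFP- cells, red for Npy-positive and blue for Npy-negative cells, and the dashed line at the threshold of 10 CPM. The 6 Npy-negative EGFP- cells are all at 0, and both kinds of cell occur along most of the titles.

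Npy-positive cells occurred in both EGFP classes. They were 14 of 24 EGFP+ cells, or 58.3% (exact Clopper-Pearson 95% interval 36.6 to 77.9%), and 15 of 21 EGFP- cells, or 71.4% (47.8 to 88.7%). These intervals overlap widely and cover counting error only. The first 19 titles held EGFP+ cells alone, 12 of 19 Npy-positive, so the class is partly tied to the title. From title 20 on, where both classes occurred, 2 of 5 EGFP+ and 15 of 21 EGFP- cells were Npy-positive, and titles 39 to 48 were 9 Npy-positive cells in a row. Among Npy-positive cells the level was 9.32 ± 2.34 (SD, n = 14) in EGFP+ cells and 9.27 ± 2.52 (SD, n = 15) in EGFP- cells on the log2(CPM + 1) scale, a gap far smaller than the spread within either class. All 6 Npy-negative EGFP- cells had no Npy count, and of the 10 Npy-negative EGFP+ cells 5 did. In the second title series 8 of 15 EGFP- and 2 of 3 EGFP+ kainic acid cells reached the threshold, with 306 to 1387 CPM, and the other 8 had no count. Of the saline cells 1 of 27 EGFP- and 0 of 5 EGFP+ reached it.

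The 2 groups differed in how many genes were counted, and the direction depended on the EGFP class. Npy-positive cells had 2938404 to 21880238 counts and a median of 7330 genes, and Npy-negative cells had 3183844 to 56183007 counts and a median of 6159 genes. Among EGFP+ cells the median was 8328.5 genes in Npy-positive and 5381.5 in Npy-negative cells, whereas among EGFP- cells it was 6573 and 7489. The median difference in mean log2(CPM + 1) over all 8989 measured genes moved with it, at 0.35 for both classes, 0.71 in EGFP+ cells and -0.21 in EGFP- cells. A gene counted as measured at 10 CPM or more in at least 20% of the 45 cells, and gene lists are therefore given relative to that median. The part of the gene number in any single difference was not tested, but for many of the genes described the value among cells with 5000 or more genes is also given. Microglial transcripts made up 0.1% or more of the counts in 6 Npy-positive and 4 Npy-negative cells, all of them EGFP+.

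Across all measured genes 318, or 3.54%, had a mean that was higher by 2 or more log2 units in Npy-positive cells, and 34, or 0.378%, had one that was lower by as much. The SD over cells of a typical gene was larger than that limit, with a median of 2.89 in Npy-positive and 3.05 in Npy-negative cells. Relative to the all-gene median the counts were 130 higher and 102 lower. A positive difference of any size was found for 66.4% of the measured genes.

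The other parts of the neuropeptide Y system were scarce. None of the 8 listed genes (the Y receptors, the related peptides Pyy and Ppy, and Dpp4, a protease that shortens the peptide) was measured by the rule above. Npy1r, a receptor found mainly on cell bodies and dendrites, was at 10 CPM or more in 6 of 29 Npy-positive and 2 of 16 Npy-negative cells, with at most 123 and 176 CPM. Npy2r, the presynaptic receptor, reached that level in 0 of 29 and 1 of 16 cells, and Npy5r in 1 of 29 and 2 of 16. Npy4r, Npy6r and Ppy had no count in any of the 45 cells.

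Of the 22 listed peptides and secreted factors that seizures are known to regulate, 11 were measured. Of these, 9 had a positive difference, against 66.4% of all measured genes, and none reached 2 log2 units. Their median lay 0.71 above the all-gene median over both classes, 0.22 above it in EGFP+ cells and 0.26 below it in EGFP- cells (relative difference -0.26). Cells with Npy mostly carried other peptides as well. Npy, Penk and Cartpt were all at 10 CPM or more in 22 of the 29 Npy-positive cells, and only 1 Npy-positive cell had neither Penk nor Cartpt. The pair also occurred without Npy: 10 of the 16 Npy-negative cells had both Penk and Cartpt, and 3 had none of the 3 peptides.

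Bdnf, the brain-derived neurotrophic factor of mossy fibres, had a higher mean in Npy-positive cells of both EGFP classes. It ranged from 311 to 2982 CPM with a median of 1114 CPM in Npy-positive cells, and from 107 to 1198 CPM with a median of 622 CPM in Npy-negative cells. The ranges overlapped, but 10 of the 29 Npy-positive cells lay above every Npy-negative cell and 4 of the 16 Npy-negative cells below every Npy-positive cell. The mean was 9.97 ± 0.78 (SD, n = 29) against 8.91 ± 0.98 (SD, n = 16) on the log2(CPM + 1) scale, a difference of 1.06 that is about the size of 1 SD. The split was cleaner in EGFP- cells, where Npy-positive cells had 311 to 2567 CPM and Npy-negative cells 263.7 to 708 CPM, and 14 of 15 Npy-positive cells lay above all 6 others. In EGFP+ cells the medians were nearly equal, at 741 and 732 CPM, while 4 Npy-negative cells lay below every Npy-positive one and 5 Npy-positive cells above every Npy-negative one, with a difference in mean log2 level of 0.88. Among cells with 5000 or more genes the difference was 1.28 in EGFP- and 0.33 in EGFP+ cells. In the second title series, not used for the choice, Bdnf had a median of 416 CPM in the 10 Npy-positive and 292 CPM in the 8 Npy-negative cells, a difference in mean log2 level of 1.80 with SDs of 3.25 and 3.97. Within the 29 Npy-positive cells Bdnf and Npy were weakly ordered together (Spearman rho 0.31 across cells, which share depth and normalization).

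Nrn1, which encodes the activity-regulated membrane-anchored protein neuritin, had a similar pattern. Its median was 468 CPM in Npy-positive and 224.5 CPM in Npy-negative cells, with differences in mean log2 level of 1.12 over both classes, 0.93 in EGFP+ and 1.41 in EGFP- cells, and 3.35 in the second series. Among cells with 5000 or more genes it was 0.19 in EGFP+ and 1.42 in EGFP- cells. In EGFP- cells 12 of 15 Npy-positive cells lay above all 6 Npy-negative ones. Nrn1 shares exon positions with Fars2, and how such reads were assigned is not given in the sources used here. Nptx2, a secreted pentraxin that gathers AMPA receptors, was at 10 CPM or more in 29 of 29 Npy-positive and 13 of 16 Npy-negative cells, and its difference was 1.02.

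Penk and Cartpt went with Npy in opposite directions in the 2 EGFP classes of the first title series. Cartpt in EGFP+ cells ranged from 0 to 11455 CPM with a median of 1431 CPM in Npy-positive cells, and from 0 to 11498 CPM with a median of 0.415 CPM in Npy-negative cells. In EGFP- cells the order was turned, with 0 to 38167 CPM and a median of 1368 CPM in Npy-positive and 411 to 28322 CPM and a median of 10065 CPM in Npy-negative cells. The differences in mean log2 level were 4.36 and -3.77, and 5.33 and -3.64 among cells with 5000 or more genes. The pooled difference of 1.31 therefore averages 2 sets of cells with unlike values. The turn was not tested, and it rests on 6 Npy-negative EGFP- cells, all of which held Cartpt and Penk above 400 CPM. Penk, the enkephalin precursor, differed by 2.33 in EGFP+ cells and by -1.63 in EGFP- cells, where its median was 10097 CPM in Npy-positive and 19361 CPM in Npy-negative cells. Among cells with 5000 or more genes these became 0.55 and -0.78. For both genes the SD over cells exceeded the difference in both EGFP+ groups and in Npy-positive EGFP- cells. In that order, with Npy-positive EGFP+ cells first, the SDs were 4.20, 5.75 and 3.69 for Penk and 5.00, 5.90 and 5.11 for Cartpt. From title 20 on, over both classes, the differences were -1.57 for Penk and -2.83 for Cartpt, while in titles 1 to 19 they were 4.43 and 6.67. Titles 1 to 19 held EGFP+ cells alone, and only 5 EGFP+ cells came after them. Whether the turn goes with the EGFP class or with the title therefore cannot be told apart. The second series, where 15 of 18 kainic acid cells were EGFP-, had differences of 2.48 for Penk and 1.63 for Cartpt. The negative direction of first-series EGFP- cells was thus not seen there.

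The other measured peptides and factors were less even. Vgf, a granin-like precursor, had differences of 2.09 in EGFP+ and -0.58 in EGFP- cells, and of 0.21 over both among cells with 5000 or more genes. Inhba, a subunit of activin, had 3.29 and -0.47. Gal, the galanin gene, differed by 0.33 over both classes and Nptx1 by 0.48. Cck, the cholecystokinin gene, and Pdyn, the dynorphin precursor of normal granule cells, had lower means in Npy-positive cells, with differences of -0.88 and -0.91 over both classes. For Gal, Nptx1, Cck and Pdyn the SD over cells exceeded the difference in both groups. Sst, whose peptide accompanies neuropeptide Y in hilar interneurons, had at most 0.505 CPM in any of the 45 cells.

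Of the interneuron markers, Gad2 was found in Npy-positive cells alone in the first title series. Gad2, which encodes the GAD65 enzyme, was at 10 CPM or more in 11 of 29 Npy-positive cells, with up to 1510 CPM, or 37.9% (exact Clopper-Pearson 95% interval 20.7 to 57.7%). No Gad2 count was found in any of the 16 Npy-negative cells, and 0 of 16 allows a share of up to 18.8% of cells with a count by the limit of 3 counts (20.6% by the exact Clopper-Pearson limit). With every cell thinned to 1000000 counts, 13 of 29 and 0 of 16 cells had a Gad2 count. Among cells with 5000 or more genes the difference in mean log2 level was 3.19, close to the 3.22 over all cells. Gad2 was found in both classes, in 7 of 14 EGFP+ and 4 of 15 EGFP- Npy-positive cells at 10 CPM or more. The 11 cells with Gad2 had a median Npy level of 1496 CPM, and the 18 Npy-positive cells without it 644 CPM. In the second series 6 of 10 Npy-positive and 2 of 8 Npy-negative cells reached 10 CPM of Gad2, so there the transcript was also found without Npy. Among saline cells 1 of 27 EGFP- and 0 of 5 EGFP+ reached that level.

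Gad1, the GAD67 gene, is described beside it although it was picked after its values were seen. It was at 10 CPM or more in 27 of 29 Npy-positive and 14 of 16 Npy-negative cells, with medians of 620 and 460 CPM, so it did not separate the groups. The interneuron list had 4 measured genes of 23 in the table. Over both classes all 4 had positive differences, against 66.4% of all measured genes. These were Gad2, Gad1, the cannabinoid receptor gene Cnr1 (1.22) and the potassium channel gene Kcnc1 (1.15). Gad2 had no count in Npy-negative cells and passed the filter through Npy-positive cells alone, so its difference could not be negative. The count of 4 is thus partly built in and supports nothing. In EGFP- cells Gad1 (-0.426) and Kcnc1 (-1.003) had negative differences, while Gad2 and Cnr1 stayed positive. In the second series Cnr1 alone was negative (-0.364). Another 17 genes of the interneuron list stayed under 10 CPM in all 45 cells and reached at most 5.43 CPM. Among these were Slc32a1, whose product loads GABA into vesicles and which had at most 0.256 CPM, and Lhx6, Dlx1, Ndnf and Htr3a, which had no count.

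**Figure D2:**
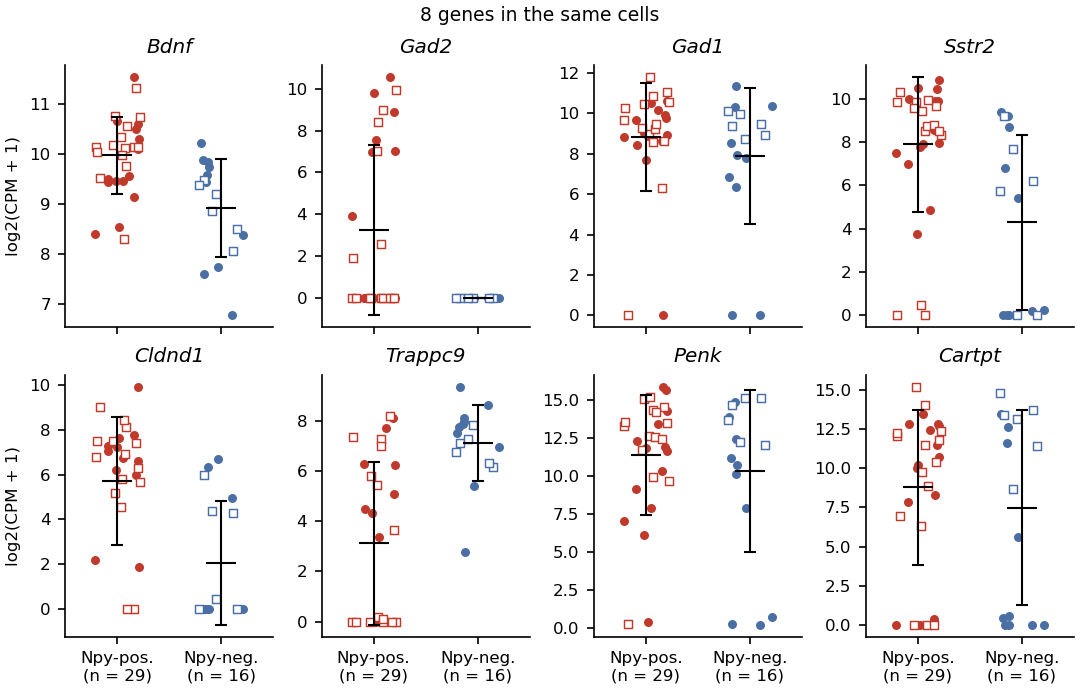
Level, log2(CPM + 1), of 8 genes in each of the 29 Npy-positive (red) and 16 Npy-negative (blue) cells, with filled circles for EGFP+ and open squares for EGFP- cells; the black bar and whiskers are the mean and 1 SD over cells, and the vertical axes differ and for Bdnf do not start at 0. Gad2 is at 0 in all Npy-negative cells, and the open blue squares of Cartpt all lie high.

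The largest differences with the same direction in both EGFP classes belonged to genes of varied function. These 28 genes, 14 in each direction, were selected on the size of this same difference, so its size in them supports nothing. Sstr2, a Gi-coupled somatostatin receptor, ranged from 0 to 1876 CPM with a median of 423 CPM in Npy-positive and from 0 to 663 CPM with a median of 47.7 CPM in Npy-negative cells. It was at 10 CPM or more in 26 of 29 and 9 of 16 cells, and 13 Npy-positive cells lay above all Npy-negative ones. Its difference was 4.35 in EGFP+ cells and 2.66 in EGFP- cells but -0.21 in the second series, where 1 cell of each group held it, and 3.22 among first-series cells with 5000 or more genes. Cldnd1, which encodes a claudin-domain membrane protein, had the largest positive difference, 3.64, with medians of 105 and 0 CPM. Thap11, a zinc finger regulator of transcription, was at 10 CPM or more in 18 of 29 and 1 of 16 cells. Cdkn2d, a cyclin-dependent kinase inhibitor (3.55), Caprin1, an RNA-binding protein of stress granules (3.07), and Cbx5, a heterochromatin protein (3.06), each reached 10 CPM in at least 25 Npy-positive cells and at most 8 Npy-negative cells. The other 8 were Bend6, Pde6d, Tor2a, Ddah1, Abhd13, Mrps30, Wdr82 and Klhl40, with differences of 3.07 to 3.37. Tor2a shares exon positions with Ttc16, and Mrps30 with an unnamed transcript. All 14 matched a RefSeq promoter entry, and 3 of them (Sstr2, Bend6 and Wdr82) held the whole cAMP response element and 5 its core, where the shares of all promoters were 1.55% and 17.8%. The genes were selected on size, so these counts are a description. They are counts of genes, some with more than 1 promoter entry, whereas the shares are over single entries of all RefSeq promoters. The 2 are therefore not alike, and no count was made for the 14 genes with the largest negative difference.

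Trappc9, a subunit of a complex that tethers transport vesicles, had the largest negative difference. It ranged from 0 to 294 CPM with a median of 9.22 CPM in Npy-positive cells and from 5.78 to 658 CPM with a median of 169 CPM in Npy-negative cells. It was at 10 CPM or more in 14 of 29 and 15 of 16 cells. The groups overlapped, but the difference was close to the same in EGFP+ (-3.98) and EGFP- cells (-3.90), and it was -1.36 in the second series, where 1 Npy-negative cell held nearly all of it. Among first-series cells with 5000 or more genes it was -2.62 in EGFP+ and -3.69 in EGFP- cells. Psd3, an exchange factor for the small GTPase Arf6, had medians of 12.3 and 90.7 CPM and differences of -2.96, -2.83 and, in the second series, -2.61. Tsc2, a brake on mTORC1 signalling, differed by -2.52 and shares exon positions with Pkd1. Amph, which encodes amphiphysin of the endocytic machinery, differed by -2.19, and Kctd16, an auxiliary subunit of GABA-B receptors, by -2.27. The remaining 9 were Xab2, Maip1, Snx32, Armcx1, Gnaz, Slc9a3r2, Dazap2, Fanci and Trmt10c, with differences of -2.87 to -2.14. Of these Xab2, Maip1, Snx32 and Fanci share exon positions with a neighbouring gene.

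The 18 second-series cells gave little likeness for these genes. Of the 14 with the largest positive difference 8, or 57.1%, were also positive there, while 59.0% of all measured genes were. Of the 14 with the largest negative difference 6, or 42.9%, were also negative, while 3689 of all 8989 measured genes were not above 0. Those libraries held fewer genes, with medians of 3791.5 in Npy-positive and 3218.5 in Npy-negative cells.

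**Figure D3:**
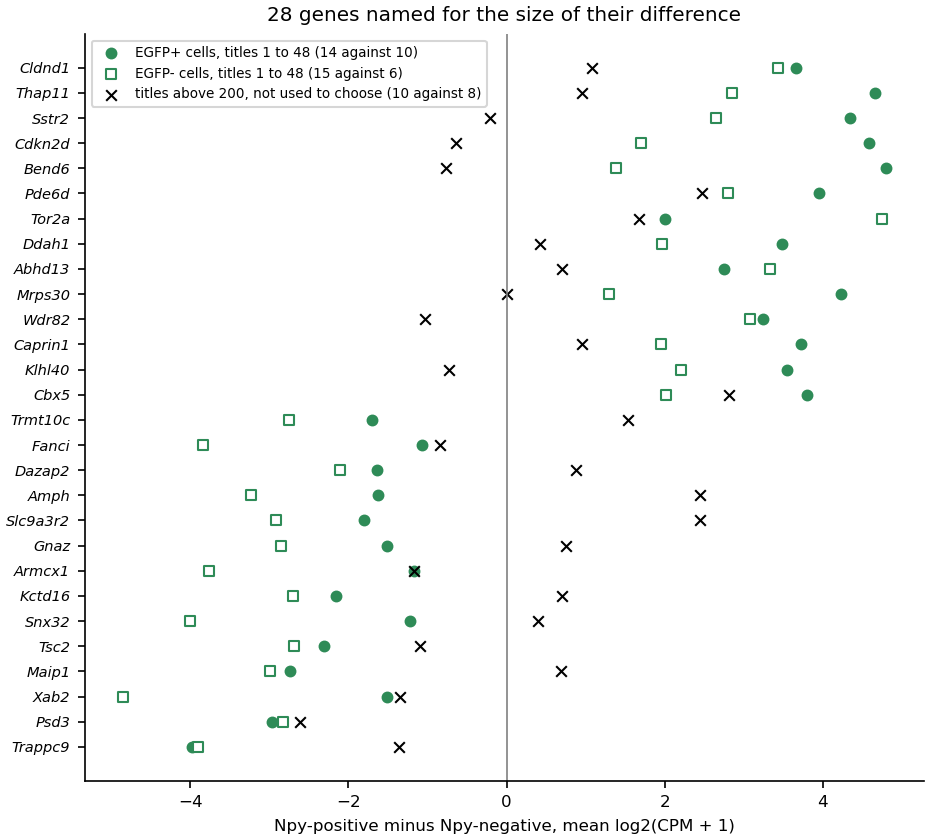
Difference in mean log2(CPM + 1), Npy-positive minus Npy-negative, for the 28 genes named for its size, in EGFP+ cells (filled circles), EGFP- cells (open squares) and the second title series (crosses). Circles and squares lie on the same side of 0 by the choice of the genes, and the crosses lie on both sides of it for either set of 14.

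Genes of the secretory pathway, which moves peptide precursors into the endoplasmic reticulum and folds them, had a list median above that of all genes. Of 24 measured members 19 had a positive difference, where 66.4% of all measured genes did. Of the same 24, 2 were higher by 2 log2 units or more, where 3.54% of all measured genes were. The list's median lay above the all-gene median by 0.45 over both classes, by 0.51 in EGFP+ cells, by 0.83 in EGFP- cells and by 0.84 in the second series. Spcs3, a signal peptidase subunit, had medians of 99.6 and 10.8 CPM and a difference of 2.83, which was 1.88 among cells with 5000 or more genes. Its exons overlap those of Asb5. Ssr4, of the translocon-associated complex, differed by 2.28, and Sec61b, of the translocation channel, by 1.93. Ddit3, a transcription factor of the stress response to unfolded protein, had a difference of -0.79. Over the 29 lists with 4 or more measured genes, this list and the interneuron markers lay above the all-gene median in all 3 sets of cells, and 4 lists (mossy cell, astrocyte and microglia markers and glutamate receptors) lay below it in all 3. This agreement over sets was looked up after the values were seen. The interneuron list had 4 measured genes, and of these Gad2 passed the filter through Npy-positive cells alone. Its first-series difference could therefore not be negative, and the place of that list is partly built in. With no filter on low genes the relative median of the interneuron list was -0.14.

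Granins and peptide processing genes had a median 0.31 above that of all genes, with 13 of 18 measured members positive, near the 66.4% of all measured genes. Chga, the chromogranin A gene, had medians of 713 and 457 CPM and differences of 2.71 in EGFP+ cells, 0.42 in EGFP- cells and 2.67 in the second series. Scg3, a secretogranin, differed by 3.54 in EGFP+ and -2.33 in EGFP- cells, and Pam, the enzyme that amidates peptides such as neuropeptide Y, by -0.21 and -2.02. The 16 genes that earlier results of these data had as higher after kainic acid were chosen on some of the same cells, and their direction is not independent. Their median lay 0.82 above that of all genes in EGFP+ cells and 0.43 below it in EGFP- cells (relative difference -0.43).

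Immediate early genes showed no common direction. Of 26 measured members 16 had a positive difference, near the 66.4% of all measured genes, and the median was 0.03 above that of all genes. Nr4a1, an orphan nuclear receptor induced by activity, differed by 1.64, Arc by 1.15, and Jun by -1.49. CREB and CRTC genes, whose products act at the cAMP response element, had a relative median of 0.10, and the coactivator gene Crtc3 had the largest difference, 1.53.

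Mature granule cell markers had a median 0.59 below that of all genes (relative difference -0.59). Of 17 measured members 8 had a positive difference, against 66.4% of all measured genes. The EGFP classes differed in the relative median, at -0.999 in EGFP+ and 0.28 in EGFP- cells. Prox1, the transcription factor that sets granule cell identity, was at 10 CPM or more in 21 of 29 Npy-positive and 15 of 16 Npy-negative cells, with medians of 158 and 222.4 CPM. Its difference was -1.45 over both classes and 3.70 in the second series. Among first-series cells with 5000 or more genes it was -0.73 over both classes, 0.53 in EGFP+ and -1.94 in EGFP- cells. Calb1, a calcium buffer of mature granule cells, differed by -1.19 and by -2.47 in the second series, and Synpr, a synaptic vesicle protein, by -1.50 and -3.02. Calb1 was under 10 CPM in 8 of 29 Npy-positive and 2 of 16 Npy-negative cells, but its highest levels were 6461 and 1349 CPM. Other markers of the list had higher means in Npy-positive cells: Trpc6, a cation channel subunit, differed by 1.34 (3.48 in EGFP+ and -1.73 in EGFP- cells), Pdzd2 by 1.33 and Tanc1 by 0.82. Prox1 was thus found in most first-series cells of both groups. In the second series it reached 10 CPM in 6 of 10 Npy-positive and 2 of 8 Npy-negative cells. Mossy cell markers (7 measured) and markers of CA3 and CA1 pyramidal cells (7 measured) had relative medians of -0.40 and 0.13.

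Among membrane proteins, 2 auxiliary subunits of AMPA receptors had large positive differences. Cnih3 had medians of 299 and 11.01 CPM, with differences of 5.25 in EGFP+ cells and 0.70 in EGFP- cells, and 0.55 in the second series, and 2.34 over both classes among cells with 5000 or more genes. Shisa9 had medians of 110 and 13.9 CPM and differences of 2.91, 1.84 and 2.23. Among cells with 5000 or more genes its difference was 1.02 over both classes, 0.25 in EGFP+ and 1.67 in EGFP- cells. The 19 measured glutamate receptor genes as a list were at -0.12 relative to all genes. Slc12a5, the chloride extruder KCC2, differed by 2.11 and was at 10 CPM or more in 26 of 29 and 10 of 16 cells. Kcna4, a potassium channel subunit, differed by 2.13, and Scn3b, a sodium channel subunit, by -2.02. Klf6, a transcription factor linked to axon growth, had medians of 119 and 9.31 CPM and differences of 2.08, 3.44 and 2.32 in EGFP+, EGFP- and second-series cells. Syn3, the third synapsin, was at 10 CPM or more in 3 of 29 and 8 of 16 cells and differed by -2.58 and -2.62 in the EGFP classes but by 1.59 in the second series. It shares exon positions with Timp3.

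Glial markers had lower medians than all genes. The relative median was -0.61 for 11 measured microglia markers, of which 8 had a negative difference, and -0.72 for 5 measured astrocyte markers, of which 4 did. Of all measured genes 66.4% had a positive difference. For microglia the relative median was close to 0 within each EGFP class, at -0.05 in EGFP+ and -0.08 in EGFP- cells. The 18 listed microglia markers together summed to 0 to 20101 CPM with a median of 133 CPM in Npy-positive and 0 to 26746 CPM with a median of 160 CPM in Npy-negative cells. The 16 listed astrocyte markers summed to 3.86 to 10034 CPM and 349 to 31457 CPM, with medians of 751 and 820 CPM. Mbp, the only measured oligodendrocyte marker, differed by -2.11, with medians of 78.7 and 189.5 CPM. No endothelial or mural marker was measured. Their part in the differences was not tested. Without the 10 cells rich in microglial transcripts the difference was 0.73 for Bdnf, 2.53 for Gad2, 3.17 for Sstr2 and -3.47 for Trappc9.

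**Figure D4:**
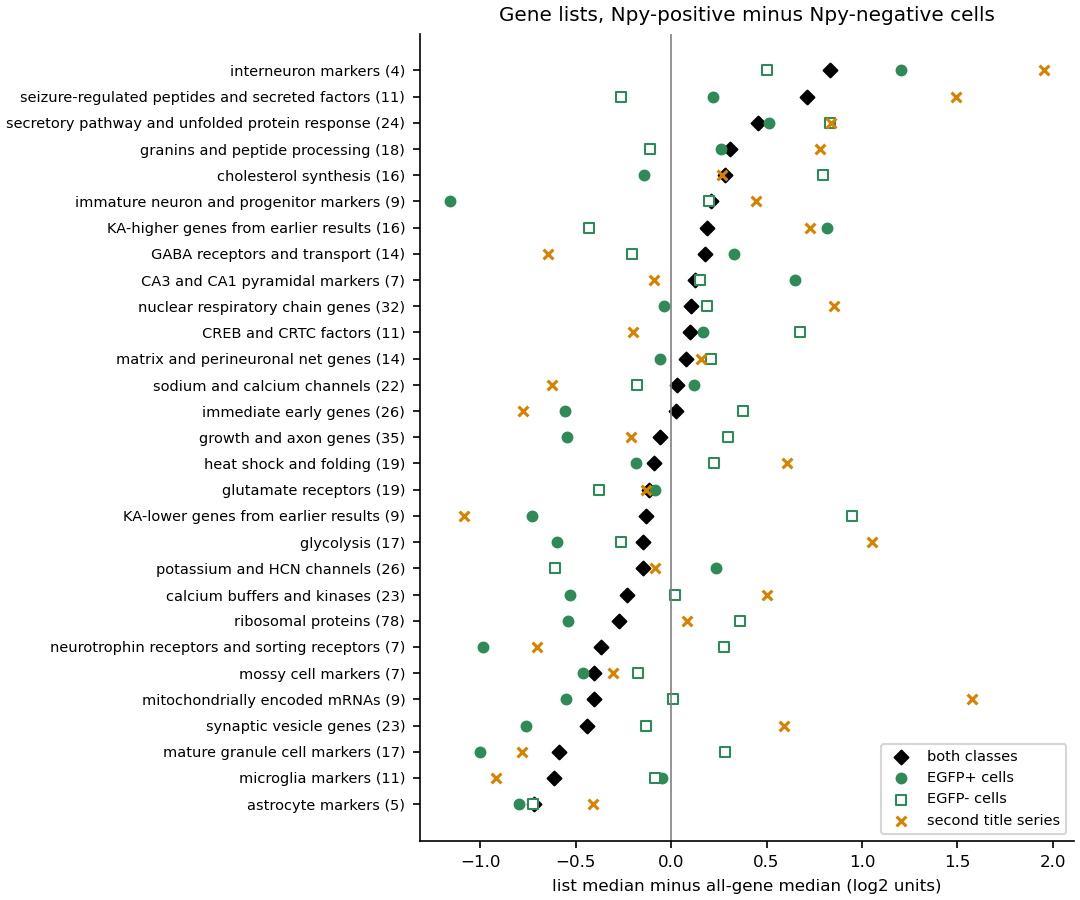
Median difference of each list with 4 or more measured genes (number in brackets), Npy-positive minus Npy-negative, relative to the median of all measured genes in the same cells, for both classes (diamonds), EGFP+ cells (circles), EGFP- cells (squares) and the second title series (crosses). The secretory pathway list lies between 0.45 and 0.84 in all 4, whereas the mature granule cell markers lie at -0.999 in EGFP+ and 0.28 in EGFP- cells.

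Other lists lay close to the background. Relative medians were 0.10 for 32 nuclear respiratory chain genes, -0.15 for 17 glycolysis genes, -0.28 for 78 ribosomal protein genes, -0.06 for 35 growth and axon genes, 0.08 for 14 matrix genes and 0.28 for 16 cholesterol synthesis genes. Among the matrix genes Col4a1, a basement membrane collagen whose exons overlap those of Col4a2, differed by 2.80, and Acan, the core protein of perineuronal nets, by 1.94 over both classes, with 3.40 in EGFP+ and -0.30 in EGFP- cells. Msmo1, an enzyme late in cholesterol synthesis, differed by 2.40.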

How the data were processed

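The deposited counts are whole numbers per gene symbol and cell. They rest on the GRCm38 build and on kallisto, featureCounts, STAR and Trimmomatic, per the submitters' processing notes, which give neither version nor role. The authors' second table, a normalized signal, scales every count of a cell by the same factor (0.118 to 2.87), whose derivation is not given in the sources used here. Cells were taken from the authors' quality-controlled count table. Of 46 labelled kainic acid cells with titles 1 to 48 it held 45: 1 labelled as passed was not in it, and 2 labelled as failed were. Whether table and labels are shifted against each other in places was not tested. Title and EGFP class came from the labels, so any such shift could put some cells in the wrong EGFP class. The 92 spike-in rows held 6 counts in these cells and were left out, leaving 22870 gene rows.

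CPM was computed from raw counts, levels as log2(CPM + 1), and differences as Npy-positive minus Npy-negative means over cells (Python 3.11.15, pandas 2.3.3, NumPy 2.4.6, SciPy 1.17.1). Cells with no count weigh heavily in such a difference, which can overstate or understate the change in pooled level. Cdkn2d differed by 3.55 with 137 and 67.6 CPM over the pooled counts of Npy-positive and Npy-negative cells. Abhd13 differed by 3.17 with 52.0 and 0.951 CPM. No test was made, because groups were selected on a measured value and mice are not named; p-values over cells would measure only the spread between cells. The computation was checked on simulated cells with far less spread than these and no division by a measured gene. That checks the arithmetic only. Highest correlation between 2 cells' log2 levels was 0.80, so none was a duplicate.

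Named genes were all measured members of the NPY and peptide lists, the 14 largest differences each way among genes at 10 CPM or more in 30% of cells with a difference of at least 1 in the same direction in both EGFP classes, and up to 3 members each way from each other list. The members and the 32 lists were chosen with earlier results of these data known. Gene positions and exon overlaps are from GENCODE on GRCm38 and promoters from RefSeq.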

Additional observations from a re-analysis of the deposited data

Results flagged for a closer look

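Of 35 sets of values from 4 to 10 cells, 6 had 1 cell far from the others by Dixon's 95% critical values, which chance passes in about 1 in 20 groups of normally distributed values. In sets that are mostly 0, as for Sstr2 and Trappc9 in the second series, a lone cell with the transcript stands apart by the way the measure is built. All values are log2(CPM + 1). Among the 10 second-series Npy-positive cells 1 had no Bdnf (0, nearest other cell 8.04) and 1 had no Gad1 (0, nearest 6.78). In the same group 1 cell held Sstr2 at 9.61 while the nearest was at 0, and among the 8 second-series Npy-negative cells 1 held it at 9.33 with the nearest at 0. Trappc9 was at 9.96 in 1 second-series Npy-negative cell, with the nearest at 0.55, so the second-series difference of -1.36 for this gene came from that cell. Among the 10 Npy-negative EGFP+ cells the highest Npy level was 3.20, with the nearest at 0.88. That cell, title 2, was the one just outside the threshold of 10 CPM, and it also had the largest share of microglial counts in its group (2.67%).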

How the results depend on the processing

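Over 17 alternative settings the 45 named genes whose difference was 2 or more in size kept their direction in all 765 values. These genes were taken for that size in the same cells, and the settings reuse those cells or parts of them. Their direction was thus largely fixed in advance, and the kept direction supports nothing. For the 28 named by size the direction within each EGFP class was fixed by the choice. In the second series, which was not used for the choice, 8 of the 14 largest positive and 6 of the 14 largest negative kept it. The number of genes higher and lower by 2 log2 units (318 and 34) depended on the setting: 72 and 83 with the Npy threshold at 100 CPM, 4 and 1 with a pseudocount of 10 CPM, 967 and 142 with the authors' normalized signal, 130 and 102 relative to the all-gene median, 1225 and 90 in EGFP+ cells alone, and 1384 and 236 in titles 1 to 19 (added after seeing the data). The lower count was also 107 without cells rich in microglial transcripts, 293 in titles 20 to 48, 796 in EGFP- cells alone, 115 in cells with 5000 or more genes and 75 without Gad2 cells. The median of all genes ranged from -0.22 to 0.72. Of the lists with 4 or more measured genes, 5 had a relative median of 0.5 or more in size, and all 5 changed sign in some setting: the peptides to -0.20 without microglia-rich cells, -0.38 in titles 20 to 48 and -0.25 in EGFP- cells, the interneuron markers to -0.14 with no filter on low genes, the mature granule cell markers to 0.30 in EGFP- cells, the astrocyte markers to 0.22 in titles 20 to 48, and the microglia markers to 0.14 at 100 CPM, 0.22 in titles 20 to 48 and 0.060 in cells with 5000 or more genes. The cause was not tested. The shares of Npy-positive cells stayed between 40 and 66.7% in EGFP+ and between 61.9 and 73.7% in EGFP- cells, and thinning to 1000000 counts moved neither. Bdnf kept a difference of 0.71 to 1.34. No paired analysis was possible because each sample is 1 cell and no result comes from a test.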
